A study of Mus musculus with 81 samples.

Results

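The genes described here are 7 transcription factors of the macrophage lineage, Spi1, Cebpa, Cebpb, Maf, Klf4, Runx1 and Zeb2, chosen by symbol from the 54079 genes listed in every library of 81 mouse RNA sequencing libraries. The study asked what loss of the histone variant H3.3 does to myeloid cell development. Conditional knockout (cKO) mice carried LysM cre/cre beside H3f3a fl/fl and H3f3b fl/fl, so that both H3.3 genes are floxed and cre sits in both copies of the lysozyme gene Lyz2, a gene of granulocytes, monocytes and macrophages, and cKO cells also lack Lyz2 itself. Wild type (WT) mice were H3f3a fl/fl H3f3b fl/fl without cre, and mice were C57BL/6 of 8 to 10 weeks. A WT with cre and without floxed alleles was not analysed here, so cre, loss of Lyz2 and loss of H3.3 cannot be told apart in any comparison of cKO with WT. Bone marrow cells were grown into bone marrow derived macrophages (BMDMs) in medium conditioned by L929 cells, a source of M-CSF, the growth factor of the macrophage lineage.

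There were 5 experiments, with 3 libraries a group unless stated. WT and cKO cells were taken on days 3, 5 and 7 of culture (18 libraries). Day 8 BMDMs were left untreated or given interferon-gamma (IFNg) for 12 hours (12 libraries, of which 2 cKO libraries had contradictory labels and were placed in no group, leaving 2 untreated and 2 IFNg-treated cKO libraries). Macrophages of the peritoneal cavity gave 6 libraries. BMDMs harvested on day 6 were grown from the start with no antibody, an isotype control antibody, or an antibody blocking IFNAR1, a chain of the type I interferon receptor (18 libraries). The last 27 libraries held 3 separate sets of WT and cKO BMDMs and 3 double knockouts, in which cKO cells also lacked Sting, Mavs or Irf7, proteins of nucleic acid sensing and interferon induction. The labels did not tie a double knockout to a set. In the order of the samples, the Sting double knockout followed set 1, the Mavs one set 2 and the Irf7 one set 3. The count files of set 3 and of the Irf7 double knockout listed 54146 genes. Those of sets 1 and 2 and of the Sting and Mavs double knockouts listed 55536.

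As background, Spi1 encodes PU.1, an ETS factor that opens the enhancers of myeloid genes and without which macrophages do not form. Runx1 encodes the DNA-binding subunit of core binding factor, which is needed for blood stem cells to arise and acts upstream of Spi1, with Cbfb as its partner. Cebpa encodes the basic leucine zipper factor that takes progenitors towards granulocytes and monocytes, and Cebpb encodes its relative of inflammatory and mature myeloid cells. Klf4 encodes a zinc finger factor of monocyte differentiation that is also a rapidly induced gene. Maf encodes c-Maf, a factor of mature macrophages that limits their self-renewal and drives Il10. Zeb2 encodes an E-box binding repressor that works with CtBP proteins and holds tissue macrophages in their identity.

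On the GRCm38 annotation, Spi1 (ENSMUSG00000002111) lies at chr2:91082390-91115756 on the plus strand, Cebpa (ENSMUSG00000034957) at chr7:35119293-35121928 on the plus strand, Cebpb (ENSMUSG00000056501) at chr2:167688915-167690418 on the plus strand and Maf (ENSMUSG00000055435) at chr8:115682942-115707794 on the minus strand. Klf4 (ENSMUSG00000003032) lies at chr4:55527143-55532466, Runx1 (ENSMUSG00000022952) at chr16:92601466-92826149 and Zeb2 (ENSMUSG00000026872) at chr2:44983632-45117395, all on the minus strand. Cebpa and Cebpb each have a single exon. The counts did not use strand, and Tmem189 on the other strand covers 20.74% of the exon bases of Cebpb, so reads from that stretch could not be given to either gene. The Cebpb count was 41.3 to 61.1% of its summed counts in the strand columns, against 79.9% or more for each of the other 6 members. The libraries were not stranded, so that sum also holds Tmem189 reads from the shared stretch. Cebpb was thus understated by an amount that these counts do not give.

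The promoters of Cebpa, Cebpb and Klf4 are shown because these 3 members had the largest responses to IFNg among the 7. Each is 300 bases of RefSeq sequence on GRCm38.p6, 250 before and 50 after the annotated start, written 5′ to 3′ on the gene's strand, with matches to GGGTGG (a box bound by KLF factors) and TATAAA in capitals.
Cebpa promoter, chr7:35119043-35119342, plus strand: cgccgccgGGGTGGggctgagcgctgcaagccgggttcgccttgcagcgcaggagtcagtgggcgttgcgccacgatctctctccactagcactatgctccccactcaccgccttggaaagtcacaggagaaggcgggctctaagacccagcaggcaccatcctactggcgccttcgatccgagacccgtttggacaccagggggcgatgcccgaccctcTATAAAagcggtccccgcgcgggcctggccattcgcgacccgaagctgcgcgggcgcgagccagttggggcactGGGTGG
Cebpb promoter, chr2:167688665-167688964, plus strand: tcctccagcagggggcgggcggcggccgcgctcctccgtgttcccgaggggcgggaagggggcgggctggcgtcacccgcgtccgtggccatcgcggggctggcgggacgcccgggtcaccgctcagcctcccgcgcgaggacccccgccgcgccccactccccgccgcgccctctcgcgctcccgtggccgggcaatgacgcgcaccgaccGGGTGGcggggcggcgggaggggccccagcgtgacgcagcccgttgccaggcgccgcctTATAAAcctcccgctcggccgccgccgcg
Klf4 promoter, chr4:55532426-55532725, minus strand: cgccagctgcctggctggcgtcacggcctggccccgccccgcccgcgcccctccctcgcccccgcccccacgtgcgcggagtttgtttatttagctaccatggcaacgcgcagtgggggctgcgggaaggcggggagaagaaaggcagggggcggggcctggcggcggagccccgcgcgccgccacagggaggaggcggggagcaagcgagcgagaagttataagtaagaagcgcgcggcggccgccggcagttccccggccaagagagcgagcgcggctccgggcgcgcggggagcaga
All 3 were rich in G and C, at 67.3% in Cebpa, 80.7% in Cebpb and 74.3% in Klf4. Matches are given on both strands (TATAAA on the gene's strand only) for the interferon response element ISRE (GAAA, then 2 bases of any kind, then GAAA), TTGCNNAA (C/EBP), GAGGAA (PU.1), TGCTGAC (part of a MAF site), GGGTGG (KLF), TGTGGT (RUNX), CACCTG (an E-box bound by ZEB factors) and TATAAA. Counting the start base as 0, GGGTGG began at -242 and 44 and TATAAA at -30 in Cebpa, GGGTGG began at -38 and TATAAA at 21 in Cebpb, and none of the 8 was in the Klf4 window. Among 32851 promoters of this length, GGGTGG was present in 31.5%, GAGGAA in 28.3%, CACCTG in 20.2%, TGTGGT in 16.8%, TTGCNNAA in 10.8%, TATAAA in 8.32%, TGCTGAC in 4.67% and the ISRE in 3.44%. RefSeq sequence was at hand for 5 of the 7 members (9 promoters), not for Spi1 and Maf. Of the promoters not printed, that of Runx1 at the far upstream start held TGTGGT at 28 and 36 and CACCTG at -136, that of Runx1 at the inner start held GAGGAA at -46, and each of the 4 of Zeb2, of which 2 overlap, held GAGGAA, with TTGCNNAA at -221 in one and GGGTGG at -36 in another. A match is a description of letters, not of a bound site.

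Depth ranged from 3614967 counts on genes per library (a cKO IFNg library of day 8) to 45581528, and each member had at least 96 counts in every library. H3f3a was lower in cKO than WT in all 12 comparisons (log2 fold change -3.62 to -1.87, all called). H3f3b, in contrast, differed by -0.41 to -0.16 without passing the test outside the antibody experiment and by -3.11 to -2.93 within it. In the double knockouts against the mean of the 3 cKO sets, Tmem173, which encodes Sting, was at -3.83, Irf7 at -1.73 and Mavs at -0.26 (edgeR adjusted p = 0.00414). The paper shows Mavs exons missing in RNA sequencing tracks of the Mavs double knockout, whereas the value here counts the whole gene. The cKO:Irf7 KO libraries also had less H3f3a (-0.91) and H3f3b (-0.73) than the cKO sets. The macrophage marker Csf1r, the M-CSF receptor, was at 897 CPM or more in every library, beside at most 57.4 CPM for the summed markers of B cells, 44.9 for T cells and 3.01 for erythroid cells, while summed neutrophil markers on day 3 reached 1592 to 3060.3 CPM in WT and 2755 to 4256 in cKO. Other macrophage markers were lower, Fcgr1 falling to 7.47 CPM in the antibody experiment and Mrc1 to 1.56 CPM in peritoneal libraries. The stromal marker Col1a1 reached 159 CPM on day 8. The summed interferon-stimulated genes were higher in every cKO library than in every WT library of the same arm except on day 7, where WT gave 321 to 1617 and cKO 1209.9 to 2051 CPM. Cell numbers of each type and RNA per cell cannot be told apart in such bulk libraries.

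The first replicate of cKO BMDMs with IFNg on day 8 stood apart, with the lowest depth, 57.1% of its reads unmapped against 12.6 to 18.3% in the other 11 libraries, summed mesothelial markers of 16.3 CPM against at most 1.64 and summed stromal markers of 353 against at most 116 CPM in the 9 other libraries placed in a group. It also held 3.62 CPM of Gata6, the factor of resident peritoneal macrophages, which was at 0.149 CPM or less in those 9 and at 92.2 to 175 CPM in the peritoneal libraries. The part of these transcripts in its values was not tested. Many log2 fold changes of the members that use it are given below with and without it, but not all.

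Values are CPM, counts scaled to 1000000 per library with TMM factors within an experiment, so levels of different experiments share no model. Differences are log2 fold changes from edgeR, and a gene was called when its Benjamini-Hochberg adjusted p was under 0.05 over all genes tested. All 7 members passed the filter on low counts in every experiment. Of their 196 tests (7 members in 28 comparisons) 28 were called, and of the 84 tests of cKO against WT 11 were. Maf was called 3 times higher and 5 times lower, Klf4 4 higher and 2 lower, Cebpb 3 higher and 2 lower, Cebpa 2 higher and 3 lower, Spi1 2 higher, Runx1 1 of each and Zeb2 never.

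Set beside all genes tested, the members were called as follows, by edgeR. In the time course, 15955 genes were tested. On day 3 8.65% of genes and 0 members differed between genotypes, on day 5 3.12% of genes and 0 members, and on day 7 1.82% of genes and 1 member, Maf. At an unadjusted p under 0.05 the member counts were 1, 2 and 3, and DESeq2 called 0, 0 and 1. The change of the genotype effect from day 3 to day 7 was called for 0.0439% of genes and 0 members (1 unadjusted, 1 by DESeq2). From day 3 to day 5, 2.91% of genes and 1 member (Maf) changed in WT and 4.89% of genes and 0 members in cKO (2 unadjusted, 0 by DESeq2). From day 5 to day 7, 0.15% of genes changed in WT and 0.0501% in cKO, with 0 members in either (2 unadjusted in each, 2 by DESeq2 in WT and 0 in cKO).

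On day 8, 13075 genes were tested. Untreated cKO and WT differed in 0.658% of genes and 0 members (0 unadjusted, 0 by DESeq2), and IFNg-treated cKO and WT in 5.48% of genes and 1 member, Klf4. IFNg changed 38.9% of genes in WT with 5 of the 7 members, and 33.9% in cKO with 3. The difference of the IFNg effect was called for 0.0% of genes and 0 members by edgeR, with 1206 genes and 2 members at an unadjusted p under 0.05 and 83 genes and 1 member by DESeq2. Peritoneal cKO and WT macrophages differed in 1.06% of 12361 genes and 0 members (0 unadjusted, 0 by DESeq2), and the groups overlapped for all 7.

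Of the 17191 genes tested in the antibody experiment, cKO and WT differed in 8.16% without antibody (2 members), in 5.11% with control antibody (3 members) and in 0.698% with IFNAR1 antibody (0 members, 0 unadjusted, 0 by DESeq2). In the IFNAR1 arm, deviations from group means correlated between cKO and WT libraries with r of -0.76 to 0.61. In the other 2 arms r was -0.16 to 0.17. The part of this shared spread in the number of calls was not tested. IFNAR1 antibody against control changed 11.2% of genes in WT and 4.68% in cKO, with 1 member in each (Cebpa lower in WT, Klf4 higher in cKO), and the difference of these effects was called for 0.0% of genes and 0 members (990 genes and 3 members unadjusted, 49 genes and 0 members by DESeq2). Control against no antibody changed 9.74% of genes and 1 member in WT and 2.09% of genes and 0 members in cKO (2 unadjusted, 0 by DESeq2). In the BMDM sets 18083 genes were tested, of which 34.6%, 21.9% and 35.9% differed between genotypes in sets 1, 2 and 3, with 2, 1 and 1 members. Against the mean of the cKO sets, 36.4% of genes and 4 members differed in cKO:Sting KO, 9.32% and 0 members in cKO:Mavs KO (1 unadjusted, 0 by DESeq2) and 10.6% and 1 member in cKO:Irf7 KO.

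**Figure D1:**
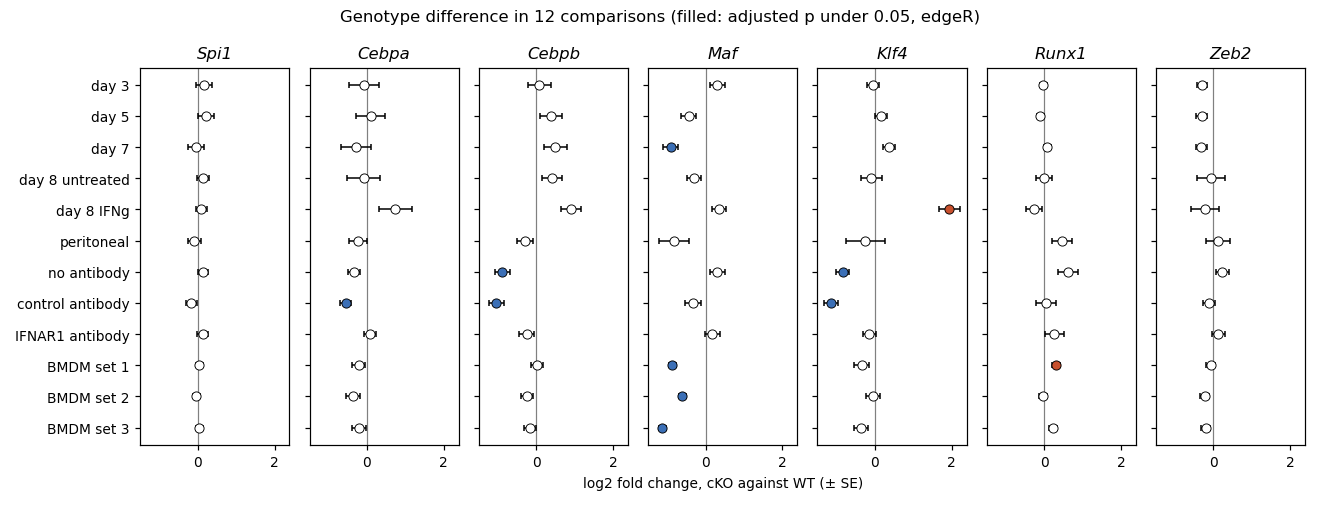
Log2 fold change of cKO against WT for each of the 7 factors (horizontal axis, log2 scale, 1 panel a factor) in the 12 comparisons (vertical axis), with bars of 1 SE and filled points for called values. Maf sat at -0.91 on day 7 and between -1.13 and -0.61 in the 3 BMDM sets, Klf4 at 1.93 with IFNg and -1.14 with control antibody, and Zeb2 stayed between -0.31 and 0.23 with no called value.

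Compared per kilobase of exon, Spi1 had the highest group mean of the 7 in 16 of the 27 groups and Cebpb in the other 11, while Klf4 was lowest in 17, Runx1 in 9 and Maf in 1. As Cebpb was understated by an unknown amount, its order with Spi1 could turn in some of those 16 groups. Among them is day 5 in WT, with Spi1 at 89.3 and Cebpb at 71.3 CPM per kilobase. On day 7 in WT, for example, the mean levels were 111 CPM per kilobase for Spi1, 103 for Maf, 49.99 for Cebpb, 28.4 for Zeb2, 25.5 for Cebpa, 12.2 for Runx1 and 5.10 for Klf4. In WT peritoneal macrophages the means per kilobase were 286 for Cebpb, 110.5 for Spi1, 33.4 for Cebpa, 13.4 for Zeb2, 8.66 for Klf4, 3.70 for Maf and 1.21 for Runx1. Over all groups, which were scaled separately by experiment, the lowest and highest group means of Spi1 differed least, 1.88-fold, and Zeb2 followed at 3.38-fold. Cebpb spanned 12.4-fold, Cebpa 17.7-fold, Runx1 18.9-fold (3.34-fold without the peritoneal groups), Klf4 28.3-fold and Maf 49.2-fold (4.64-fold without the peritoneal groups). Within the time course Runx1 spanned 1.16-fold and Spi1 1.36-fold. On day 8 Runx1 and Zeb2 spanned 1.39-fold each and Spi1 1.88-fold. In the antibody, peritoneal and set experiments Spi1 spanned least.

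**Figure D2:**
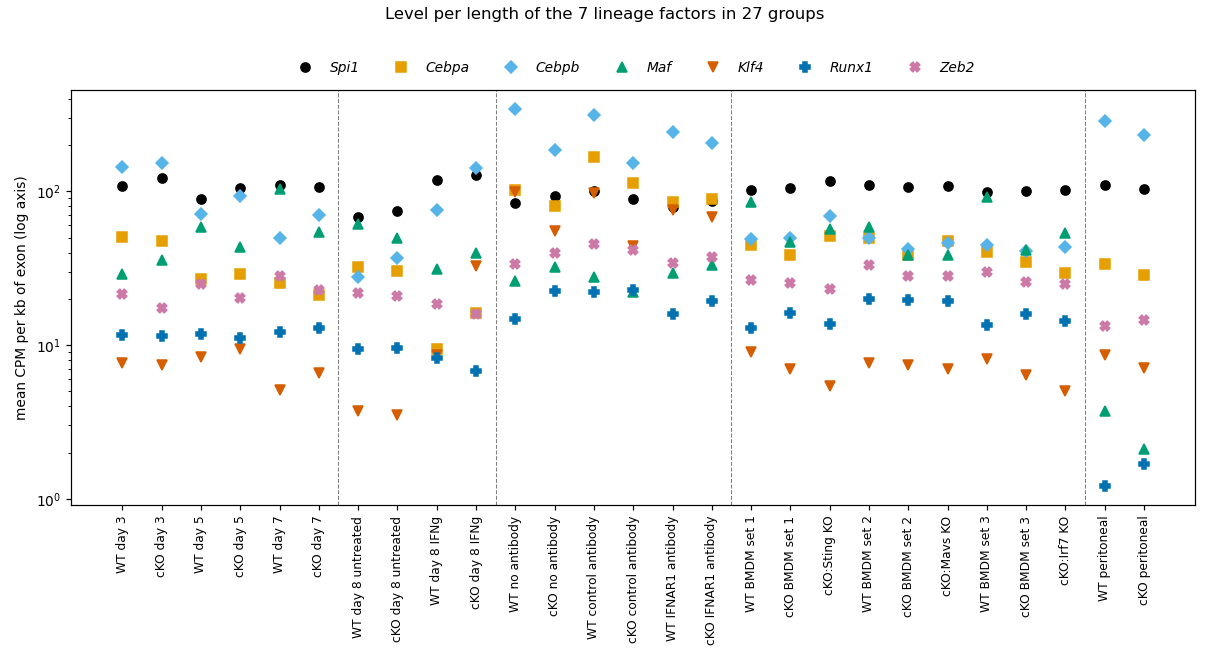
Mean level of each factor in CPM per kilobase of exon (vertical axis, log scale) in the 27 groups, with 1 point for each group mean and dashed lines between experiments. Spi1 or Cebpb is the highest point in every group and Klf4 or Runx1 the lowest in 26 of 27. Levels of different experiments were scaled separately.

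Spi1, the gene of PU.1, was not called between cKO and WT in any of the 12 comparisons, with log2 fold changes between -0.16 and 0.23 and adjusted p of 0.492 or more (edgeR). On day 7 it stood at 354, 300.3 and 240.4 CPM in the 3 WT libraries and 362, 245 and 258 CPM in the 3 cKO libraries, and the groups overlapped. With control antibody the cKO libraries, at 265, 242 and 220.0 CPM, were all below the WT libraries, at 276, 269.6 and 268 CPM (log2 fold change -0.16 ± 0.14 (SE), edgeR adjusted p = 0.674). Spi1 rose with IFNg in both genotypes. Untreated WT libraries of day 8 had 175, 196 and 179 CPM and IFNg-treated ones 295, 345 and 323 CPM (log2 fold change 0.81 ± 0.14 (SE), edgeR adjusted p = 0.00124). In cKO the untreated libraries had 194 and 211 CPM and the treated ones 299 and 389 CPM (log2 fold change 0.77 ± 0.17 (SE), edgeR adjusted p = 0.00669). Every treated library was above every untreated one in both genotypes. Without the library of low depth the value in cKO was 0.97 (edgeR adjusted p = 0.000124). The call in cKO was lost without the first untreated cKO library (log2 fold change 0.70, edgeR adjusted p = 0.0745), and with scaling by library size alone, which moved the median of all genes to -0.83, the value turned to -0.027.

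Across the groups Spi1 was highest in cKO cells with IFNg on day 8 (344 ± 63.7 CPM, SD, n = 2) and lowest in untreated WT cells of the same experiment (183 ± 11.2 CPM, SD, n = 3). Of the 26 steps between neighbours in that order of group means, 25 were between groups whose libraries overlapped.

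Runx1 was close to flat through the time course, between 124 and 165 CPM in all 18 libraries. In the BMDM sets it was called higher in cKO in set 1 only, with 175, 140.1 and 150.3 CPM in WT and 201, 188 and 190.3 CPM in cKO, where the groups did not overlap (log2 fold change 0.32 ± 0.11 (SE), edgeR adjusted p = 0.022). This call was lost when the second or the third WT library or the first cKO library was left out (edgeR adjusted p = 0.106, 0.0666 and 0.0727). In set 2 the WT libraries had 239.5, 238 and 245 CPM and the cKO libraries 238, 231 and 244 CPM (log2 fold change -0.02), so the 3 sets did not give 1 picture. In set 3 the value was 0.23 ± 0.11 (edgeR adjusted p = 0.0952), and without the first WT library it was 0.43 (adjusted p = 0.00034). Its partner Cbfb, which stabilises the Runx1 protein, gave log2 fold changes of 0.45 in set 1 (edgeR adjusted p = 0.00653), -0.01 in set 2 and 0.37 in set 3 (adjusted p = 0.0227).

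The cKO:Sting KO libraries had 155, 169 and 167 CPM of Runx1 and were lower than the mean of the cKO sets (log2 fold change -0.33 ± 0.09 (SE), edgeR adjusted p = 0.00445), and Cbfb was lower as well (-0.66, adjusted p = 3.94e-05). Against cKO set 1 alone the Runx1 value was -0.24 (edgeR adjusted p = 0.105) and against set 3 alone -0.22 (adjusted p = 0.113). Peritoneal macrophages held little Runx1, 11.6, 11.8 and 20.3 CPM in WT and 21.1, 16.4 and 23.3 CPM in cKO. In WT cells without antibody the first library stood at 247 CPM beside 121 and 164. The cKO libraries of that arm had 257, 273 and 285 CPM (log2 fold change 0.62 ± 0.25 (SE), edgeR adjusted p = 0.129), and without that WT library the value was 0.93 (adjusted p = 0.022).

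Cebpa fell with IFNg in WT and had its highest levels in the antibody experiment. Untreated WT libraries of day 8 had 67.5, 98.03 and 89.3 CPM and treated ones 22.4, 17.9 and 34.2 CPM, with no overlap (log2 fold change -1.77 ± 0.40 (SE), edgeR adjusted p = 0.00569). In cKO the untreated libraries had 74.9 and 86.1 CPM, and the treated ones had 65.8 and 18.96 CPM, the first of these being the library of low depth (log2 fold change -0.96 ± 0.48 (SE), edgeR adjusted p = 0.154). Without it the fall in cKO was -2.06 (edgeR adjusted p = 0.000801). The difference of the IFNg effect between the genotypes was 0.82 ± 0.61 (edgeR adjusted p = 0.655), or -0.27 without the library of low depth (adjusted p = 0.823), and the cKO value with IFNg relative to WT was -0.37 (adjusted p = 0.517) without the first cKO library and 1.37 (adjusted p = 0.00759) without the second, so 1 library set its direction.

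In culture without IFNg, the day 3 libraries of WT had 106, 135 and 159 CPM and those of day 5 39.04, 85.7 and 88.5 CPM, every day 5 library being lower (log2 fold change -0.91 ± 0.39 (SE), edgeR adjusted p = 0.2). The spread within groups was wide, as on day 7 in WT, where the libraries had 41.6, 119 and 40.9 CPM. Between genotypes the log2 fold changes were -0.08, 0.10 and -0.27 on days 3, 5 and 7, with overlapping groups.

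In the antibody experiment, WT cells with control antibody had 441, 451 and 427 CPM of Cebpa, more than WT cells without antibody at 224, 289 and 292 CPM (log2 fold change 0.71 ± 0.15 (SE), edgeR adjusted p = 0.0131) and more than those with IFNAR1 antibody at 176, 249.6 and 246 CPM (log2 fold change -0.98 ± 0.15 (SE), edgeR adjusted p = 0.0028). Both tests use the same control antibody libraries. The WT control antibody group stood above every other group of the series in Cebpa, with no overlap with the next. The cKO libraries with control antibody had 282, 319 and 297 CPM and were lower than WT (log2 fold change -0.56 ± 0.15 (SE), edgeR adjusted p = 0.0445), but this call was lost without any 1 of the 6 libraries, where adjusted p ran from 0.0816 to 0.159. The rise with control antibody in WT was lost without the second control library (edgeR adjusted p = 0.0715). With IFNAR1 antibody the genotypes overlapped (cKO 234, 240.4 and 233 CPM, log2 fold change 0.08 ± 0.15).

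Among the double knockouts, Cebpa was at 144, 122 and 139 CPM in cKO:Sting KO and between 70.1 and 115 CPM in the 9 cKO libraries of the sets (log2 fold change 0.46 ± 0.14 (SE), edgeR adjusted p = 0.0122). Against set 1 alone the edgeR adjusted p was 0.0987 and against set 2 alone 0.0738, and leaving out the first or the third cKO:Sting KO library gave 0.0782 and 0.058. Trib1, whose product drives degradation of C/EBP alpha protein, was higher in cKO in sets 1 and 3 (1.43 and 1.34, edgeR adjusted p = 0.00508 and 0.00717), where Cebpa itself gave -0.22 ± 0.18 and -0.21 ± 0.18 without a call. In set 2 Cebpa gave -0.36, also without a call. There every cKO library, at 81.8 to 115 CPM, was below every WT library, at 126 to 135 CPM. A link between Trib1 and Cebpa was not tested.

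Cebpb went in different directions in different experiments. In the time course it was highest on day 3, with 277, 162 and 209 CPM in WT and 296, 199 and 191 CPM in cKO, and lower on day 5, with 79.5, 117 and 125 CPM in WT and 144, 133 and 141 CPM in cKO. Every day 5 library of WT was below every day 3 library, and the test missed the threshold in edgeR (-1.01 ± 0.29, adjusted p = 0.0745) and passed it in DESeq2 (-1.02, adjusted p = 0.0237). The cKO libraries of day 5 were all above WT (log2 fold change 0.38 ± 0.29 (SE), edgeR adjusted p = 0.611), as were those of untreated day 8 BMDMs, at 52.8 and 57.4 CPM beside 42.4, 37.5 and 45.2 CPM (log2 fold change 0.40 ± 0.25 (SE), edgeR adjusted p = 1).

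IFNg raised Cebpb in both genotypes. Treated WT libraries had 114, 101 and 127 CPM, every one above the untreated ones (log2 fold change 1.46 ± 0.23 (SE), edgeR adjusted p = 0.000895). Treated cKO libraries had 290.4 and 139.6 CPM (log2 fold change 1.96 ± 0.29 (SE), edgeR adjusted p = 0.000787), all above treated WT (log2 fold change 0.91 ± 0.25 (SE), edgeR adjusted p = 0.0661). Without the first treated cKO library, the one of low depth, the rise in cKO was 1.37 (edgeR adjusted p = 5.97e-05), and without the second it was 2.37 (adjusted p = 1.54e-06). The excess over WT was 0.31 (edgeR adjusted p = 0.226) without the first and 1.32 (adjusted p = 8.90e-05) without the second.

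In the antibody experiment Cebpb was lower in cKO than in WT. Without antibody WT libraries had 376, 645 and 529.6 CPM and cKO libraries 255, 259.8 and 325 CPM (log2 fold change -0.89 ± 0.19 (SE), edgeR adjusted p = 0.0126). With control antibody WT had 469, 472 and 485 CPM and cKO 178, 307 and 209 CPM (log2 fold change -1.04 ± 0.20 (SE), edgeR adjusted p = 0.00488). With IFNAR1 antibody WT had 349.8, 398 and 358 CPM and cKO 292, 312 and 324 CPM (log2 fold change -0.25 ± 0.19 (SE), edgeR adjusted p = 0.618). The groups did not overlap in any of the 3 arms, and the gap was narrowest with IFNAR1 antibody, while the difference of the IFNAR1 effect between genotypes was 0.79 ± 0.27 and was not called (edgeR adjusted p = 0.709). The call without antibody was lost when the second or the third WT library or the first or second cKO library was left out (edgeR adjusted p = 0.0752, 0.0509, 0.0615 and 0.0612), while the call with control antibody was kept in every alternative run.

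Cebpb also rose in cKO:Sting KO cells, at 111, 88.96 and 111 CPM beside 77.04, 66.7 and 80.3 CPM in cKO set 1, 65.9, 60.7 and 63.4 CPM in set 2 and 58.7, 62.1 and 62.6 CPM in set 3 (log2 fold change 0.64 ± 0.12 (SE), edgeR adjusted p = 0.000281). All 3 of its libraries were above all 9 libraries of the sets. Summed stromal markers were 164 to 202 CPM in these libraries and 27.5 to 47.4, 35.6 to 70.3 and 23.7 to 33.6 CPM in the 3 cKO sets, and their part in the result was not tested. Ddit3, which encodes CHOP, a relative that pairs with and blocks C/EBP proteins, was higher in the same comparison (0.90, edgeR adjusted p = 1.43e-06).

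Klf4 had the widest range of any member within an experiment, its group means on day 8 differing 9.30-fold. IFNg raised it in WT BMDMs of day 8 from 13.1, 10.2 and 10.9 CPM to 29.7, 22.9 and 25.8 CPM (log2 fold change 1.20 ± 0.25 (SE), edgeR adjusted p = 0.00421) and in cKO BMDMs from 10.2 and 11.1 CPM to 62.8 and 136 CPM (log2 fold change 3.22 ± 0.33 (SE), edgeR adjusted p = 8.79e-05). Untreated cells of the 2 genotypes overlapped (log2 fold change -0.09 ± 0.28), and with IFNg both cKO libraries were above all 3 WT libraries (log2 fold change 1.93 ± 0.27 (SE), edgeR adjusted p = 0.00613). The first treated cKO library was again the one of low depth. Without it the rise in cKO was 3.70 (edgeR adjusted p = 1.57e-07). Without it the excess of cKO over WT was 2.40 (edgeR adjusted p = 3.75e-05), and without the other it was 1.23 (adjusted p = 0.000831), each leaving 1 treated cKO library that was assumed to vary like the other groups. The call of that excess was lost with scaling by library size alone (1.59, edgeR adjusted p = 0.0918), with only the groups compared (1.95, adjusted p = 0.0997) and with the 2 conflicting libraries placed by title (1.41, adjusted p = 0.535). Placement by library name, which states the opposite treatment to the title, was not among the settings that lost the call. Of those 2, the library titled as untreated had 1993 CPM of Irf7 and 132.6 of Klf4, with all libraries scaled together. That titled as IFNg-treated had 182 CPM of Irf7 and 10.6 of Klf4. The cKO libraries placed in a group had 207 to 266 CPM of Irf7 untreated and 1499 to 2373 CPM with IFNg. The difference between the genotypes in their response to IFNg was 2.03 ± 0.40 on the log2 scale and was not called (edgeR adjusted p = 0.232), while DESeq2 gave 2.09 (adjusted p = 0.00138) and leaving out the first or second treated cKO library gave 2.51 (adjusted p = 0.00232) and 1.32 (adjusted p = 0.00407).

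**Figure D3:**
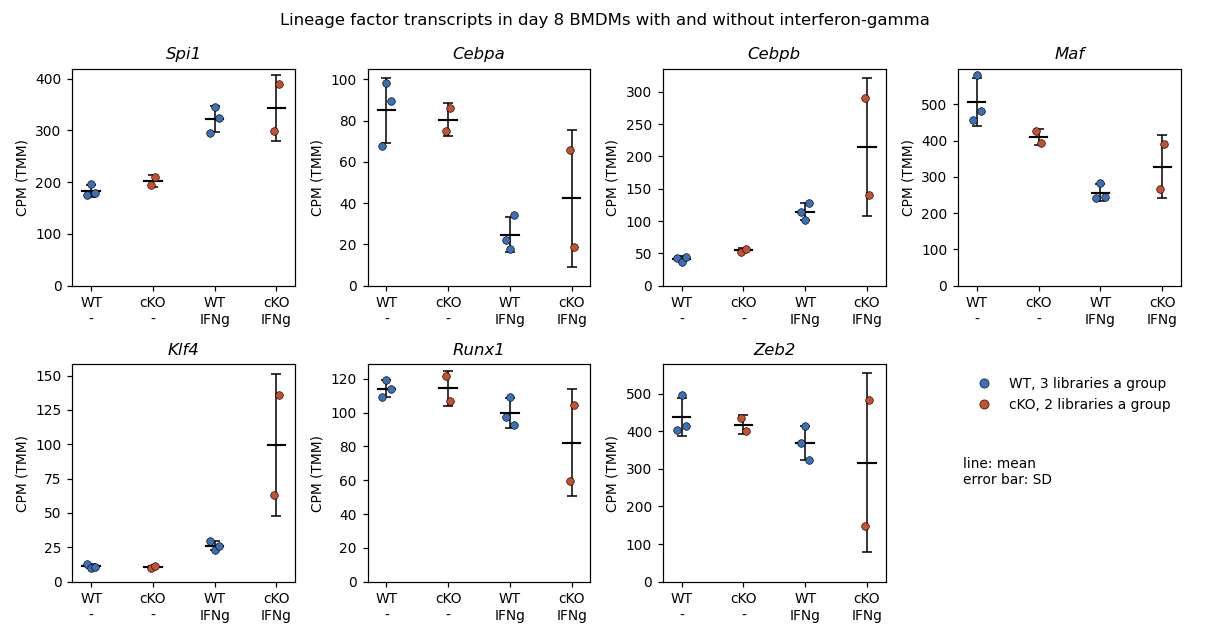
CPM of the factors in each of the 10 day 8 libraries placed in a group (vertical axes, linear from 0, 1 panel a factor), with horizontal bars for group means and error bars of 1 SD. Klf4, Cebpb and Spi1 lie higher in IFNg-treated than in untreated libraries of both genotypes, and the 2 treated cKO libraries carry Klf4 at 62.8 and 136 CPM beside 22.9 to 29.7 CPM in treated WT.

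In the antibody experiment the direction was the opposite. Without antibody, WT cells had 274, 337 and 298 CPM of Klf4 and cKO cells 166, 162 and 180.2 CPM (log2 fold change -0.84 ± 0.17 (SE), edgeR adjusted p = 0.0083). With control antibody they had 272, 320.2 and 297 and 129.8, 166 and 108 CPM (log2 fold change -1.14 ± 0.17 (SE), edgeR adjusted p = 0.00108). No cKO library reached the lowest WT library in either arm, and both calls were kept in every alternative run. With IFNAR1 antibody WT had 264, 178 and 248 CPM and cKO 247, 193 and 186 CPM, and the groups overlapped (log2 fold change -0.14 ± 0.17 (SE), edgeR adjusted p = 0.751). Relative to control antibody, IFNAR1 antibody gave -0.36 ± 0.17 in WT (edgeR adjusted p = 0.145) and 0.64 ± 0.17 in cKO (edgeR adjusted p = 0.0456). The rise in cKO was lost when the first or the third control library or the first or second IFNAR1 library was left out (adjusted p = 0.113, 0.227, 0.205 and 0.0658), and the difference of the 2 effects was 1.001 ± 0.24 (edgeR adjusted p = 0.326).

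The summed level of 8 immediate early genes, a list of rapidly induced genes that does not hold Klf4, was likewise lower in every cKO library than in every WT library without antibody and with control antibody, and overlapped with IFNAR1 antibody. It was 5687 to 8424 CPM in WT and 3753 to 3885 CPM in cKO without antibody, 4428 to 5197 and 2631 to 3029 CPM with control antibody, and 4451 to 7232 and 3725 to 8188 CPM with IFNAR1 antibody. In the BMDMs of day 7 it was 385 to 566 CPM in WT and 463 to 787 CPM in cKO. Summed stromal markers with control antibody were 13.1 to 225 CPM in WT and 165 to 307 CPM in cKO. The part of either list in the Klf4 and Cebpb differences was not tested.

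**Figure D4:**
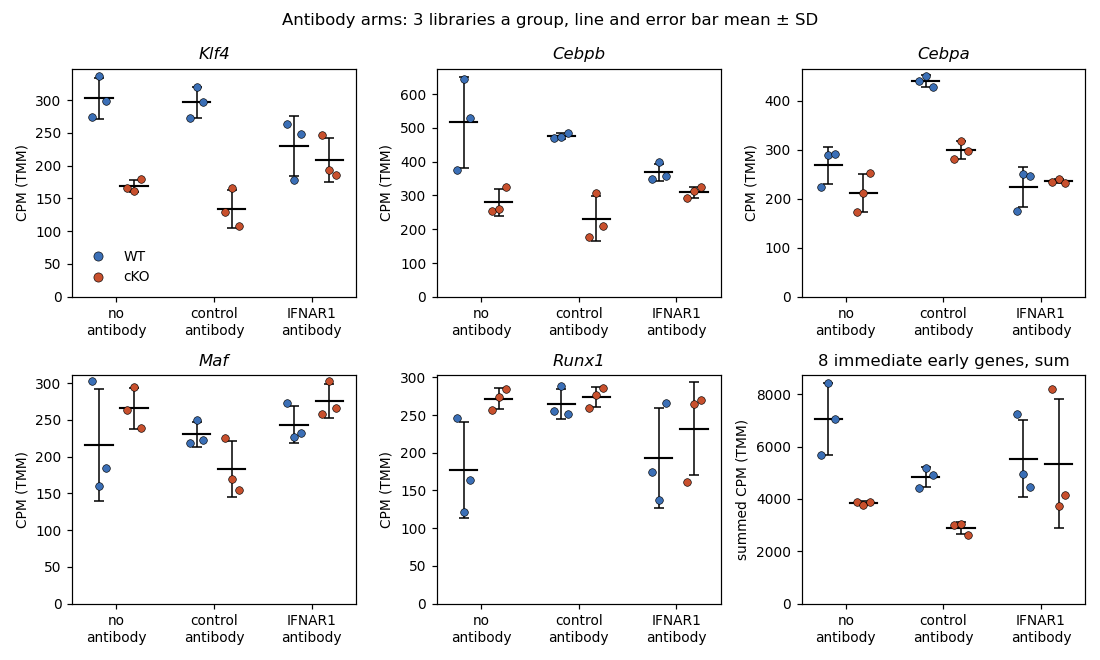
CPM of Klf4, Cebpb, Cebpa, Maf and Runx1, and the summed CPM of 8 immediate early genes, in each of the 18 libraries of the antibody experiment (vertical axes, linear from 0), with horizontal bars for group means and error bars of 1 SD. Klf4 and Cebpb lie lower in cKO than in WT without antibody and with control antibody, and Klf4 overlaps between genotypes with IFNAR1 antibody, at 178 to 264 CPM in WT and 186 to 247 CPM in cKO.

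Elsewhere Klf4 was low. In the time course it had between 13.6 and 34.00 CPM. WT libraries had 21.1, 27.9 and 27.7 CPM on day 5 and 15.5, 13.6 and 17.6 CPM on day 7, with every day 7 library lower (log2 fold change -0.71 ± 0.16 (SE), edgeR adjusted p = 0.0761), a value that passed the threshold in DESeq2 (adjusted p = 0.003). On day 7 the cKO libraries had 20.3, 18.04 and 22.03 CPM, all above WT, without a call (log2 fold change 0.37 ± 0.16 (SE), edgeR adjusted p = 0.25).

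Maf was the member most often lower in cKO, and the only one called in all 3 BMDM sets. In set 1 WT had 725, 689 and 707 CPM and cKO 380.5, 374 and 408 CPM (log2 fold change -0.87 ± 0.09 (SE), edgeR adjusted p = 7.98e-08). In set 2 WT had 509.8, 492 and 455 CPM and cKO 318, 361 and 277 CPM (log2 fold change -0.61 ± 0.09 (SE), edgeR adjusted p = 1.48e-05). In set 3 WT had 838, 676 and 748 CPM and cKO 347, 335 and 353 CPM (log2 fold change -1.13 ± 0.09 (SE), edgeR adjusted p = 1.48e-09). In each set every cKO library was below every WT library, and all 3 calls were kept in every alternative run. Group means in cKO were 54.8%, 65.7% and 45.7% of WT. Over the same libraries the 6 progenitor markers summed to 11.8 to 12.6, 17.03 to 20.7 and 9.86 to 12.00 CPM in WT and 29.7 to 37.9, 32.4 to 52.03 and 25.6 to 40.8 CPM in cKO, and the 8 macrophage markers to 5707 to 8046, 7568 to 7577 and 5515 to 8124 CPM in WT and 5460.2 to 6122, 5606 to 6036 and 4898 to 5128 CPM in cKO. Their part in the Maf difference was not tested.

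In the time course Maf climbed in WT and stayed lower in cKO by day 7. WT libraries had 246, 259.9 and 209.7 CPM on day 3, 626, 409 and 413 CPM on day 5 and 708, 1083 and 759.9 CPM on day 7. The step from day 3 to day 5 was called (log2 fold change 1.02 ± 0.21 (SE), edgeR adjusted p = 0.0145) and that from day 5 to day 7, where the libraries did not overlap, was not (log2 fold change 0.82 ± 0.20 (SE), edgeR adjusted p = 0.0857). In cKO the libraries had 285, 301 and 299 CPM on day 3, 469, 302 and 296 CPM on day 5 and 467, 458 and 431 CPM on day 7, and neither step was called (0.27 ± 0.20 with adjusted p = 0.534, then 0.34 ± 0.20 with adjusted p = 0.997, edgeR). On day 3 every cKO library was above WT without a call (log2 fold change 0.31 ± 0.20 (SE), edgeR adjusted p = 0.412), and on day 7 every one was below (log2 fold change -0.91 ± 0.21 (SE), edgeR adjusted p = 0.0352).

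The change of the genotype difference from day 3 to day 7 was -1.22 ± 0.29 for Maf and missed the threshold in edgeR (adjusted p = 0.0847), while DESeq2 gave -1.20 (adjusted p = 0.00604). The day 7 call was lost without the second WT library (-0.70, edgeR adjusted p = 0.133) and without any 1 of the 3 cKO libraries (-0.94, -0.91 and -0.87, adjusted p = 0.11, 0.0848 and 0.113). The WT step to day 5 was lost without the third WT library of day 3 (edgeR adjusted p = 0.102) or the first of day 5 (adjusted p = 0.0831). On day 7 summed macrophage markers were 6169 to 9351 CPM in WT and 4717 to 5882 CPM in cKO, and summed progenitor markers 9.60 to 13.4 and 26.4 to 38.9 CPM, and their part in the day 7 difference was not tested.

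**Figure D5:**
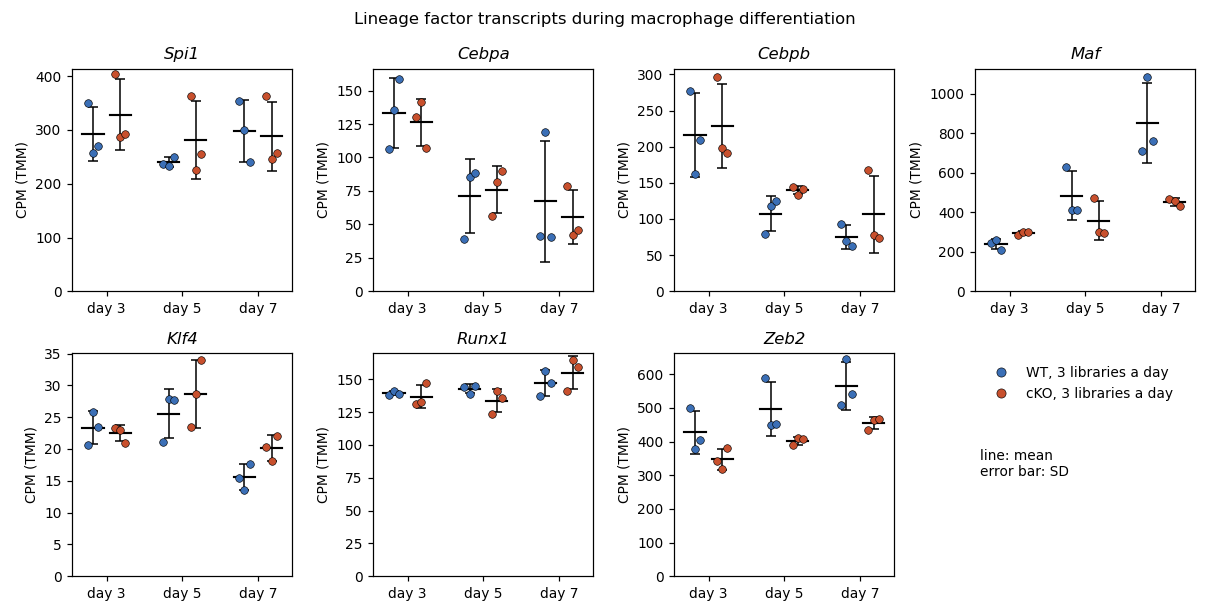
CPM of each factor (vertical axes, linear from 0) on days 3, 5 and 7 of culture (horizontal axis), with 1 point for each of the 18 libraries, horizontal bars for group means and error bars of 1 SD. Maf rises in WT from 239 ± 25.9 to 850.2 ± 203 CPM (mean ± SD, n = 3) and reaches 452 ± 18.7 CPM in cKO, while Cebpb and Cebpa lie highest on day 3 in both genotypes.

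IFNg lowered Maf in WT, from 456, 581 and 483 CPM to 242, 284 and 245 CPM (log2 fold change -0.98 ± 0.17 (SE), edgeR adjusted p = 0.00136). In cKO the untreated libraries had 426 and 395 CPM and the treated ones 266 and 389 CPM (log2 fold change -0.32 ± 0.21 (SE), edgeR adjusted p = 0.257), and the difference of the 2 effects was 0.66 ± 0.27 (edgeR adjusted p = 0.532), or 0.95 without the library of low depth (adjusted p = 0.0817). Without the first treated cKO library the cKO value was -0.05 and without the second -0.65. With IFNg, cKO relative to WT gave 0.35 ± 0.19 (SE, edgeR adjusted p = 0.258). That value was 0.63 without the first treated cKO library and 0.03 without the second.

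In cKO:Sting KO cells Maf was at 478, 446 and 474 CPM and in cKO:Irf7 KO cells at 403, 451 and 473 CPM, both above the mean of the cKO sets (log2 fold change 0.42 ± 0.07 (SE), edgeR adjusted p = 8.03e-05 and log2 fold change 0.34 ± 0.07 (SE), edgeR adjusted p = 0.00265). Both stayed below all 3 libraries of WT sets 1 and 3 and overlapped those of WT set 2. The cKO:Mavs KO cells had 292, 334 and 322 CPM and did not pass the test (log2 fold change -0.14 ± 0.07 (SE), edgeR adjusted p = 0.245). The cKO:Sting KO difference was kept against each set alone, and the cKO:Irf7 KO difference was 0.19 against set 1 alone (edgeR adjusted p = 0.182). Preparation and genotype cannot be told apart in these comparisons.

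Peritoneal macrophages had the least Maf of the series, 49.1, 15.5 and 26.9 CPM in WT and 20.6, 12.2 and 18.98 CPM in cKO, and the genotypes overlapped (log2 fold change -0.81 ± 0.39 (SE), edgeR adjusted p = 0.589). In the antibody experiment the group means of Maf lay between 183 and 276 CPM. Control antibody gave -0.54 ± 0.20 relative to none in cKO (edgeR adjusted p = 0.223) and IFNAR1 antibody 0.59 ± 0.20 relative to control in cKO (edgeR adjusted p = 0.109), both resting on the same control libraries.

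Zeb2 was called in none of the 28 comparisons by edgeR, with a lowest adjusted p of 0.107, 7 of them having an unadjusted p under 0.05, and in none of them by DESeq2. In an alternative edgeR fit with only the groups compared, all 7 members were called in cKO:Sting KO, Zeb2 among them. On day 7 it was 508, 646 and 542 CPM in WT and 434, 464 and 467 CPM in cKO, and the cKO libraries were all lower there and on day 5 (log2 fold changes -0.31 ± 0.14 and -0.30 ± 0.14, edgeR adjusted p = 0.271 and 0.333). On day 3 the value was -0.30 ± 0.14. With IFNg, the treated cKO libraries of day 8 had 147 and 484 CPM, the low value in the library of low depth, beside 368, 414 and 322 CPM in WT, and the difference was 0.42 (edgeR adjusted p = 0.113) without the first and -1.35 (adjusted p = 0.000294) without the second.

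Zeb1, the paralog that binds the same E-boxes, rose in cKO on day 3 (1.30, adjusted p = 0.00323) and on day 5 (1.07, adjusted p = 0.0269), both by edgeR.

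Other myeloid transcription factors were followed as a list of 38 genes. On day 3 2 of the 37 tested rose and 3 fell in cKO, beside 6% and 2.64% of all genes, with a median log2 fold change of 0.13 beside 0.04 over all genes. Bhlhe41, a repressor found in self-renewing macrophages, was lower (-0.58), and Bach2, a lymphoid repressor, was higher (1.09), both called by edgeR. In the BMDM sets 12, 12 and 12 of the 37 tested rose and 6, 7 and 8 fell in cKO. Over all genes 17.9%, 10.1% and 17.1% rose and 16.7%, 11.8% and 18.8% fell in the same sets. The list had medians of 0.02, 0.09 and -0.01 beside -0.03, -0.01 and -0.06 over all genes. Myb, a factor of proliferating progenitors, was higher in cKO in all 3 (2.90, 1.79 and 3.39, all called).

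With IFNg in WT, 8 of the 33 tested rose and 13 fell, beside 19.5% and 19.3% of all genes, with a median of -0.63 beside -0.01 over all genes. Irf8, an interferon-induced partner of PU.1, rose by 3.05, and Egr1, an immediate early zinc finger factor, changed by -3.26. In the antibody experiment, IFNAR1 antibody relative to control raised 7 of 35 in WT and 8 in cKO and lowered 0 in both (with 7.38% and 2.44% of all genes higher and 3.84% and 2.25% lower), with medians of 0.40 and 0.45 beside 0.01 and 0.01 over all genes. Egr2, another such factor, was at 1.70 and 3.12 in WT and cKO.

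Of 12 partners and inhibitors of the members, 8, 2 and 7 of the 11 tested rose and 0, 1 and 1 fell in cKO in sets 1, 2 and 3, beside the shares of all genes given above, with medians of 0.45, -0.00 and 0.37 beside -0.03, -0.01 and -0.06 over all genes. Ddit3 was higher in cKO on day 3 (2.34, adjusted p = 0.00235, edgeR) and in the 3 sets (1.09, 0.64 and 1.08, all called).

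Of 25 macrophage genes known as targets of these factors, the median log2 fold change of cKO against WT was 0.05 on day 5 and -0.22 on day 7, beside 0.01 and 0.01 over all genes. In the sets 7, 2 and 4 rose and 5, 8 and 7 fell, beside 17.9%, 10.1% and 17.1% of all genes higher and 16.7%, 11.8% and 18.8% lower. Mrc1, the mannose receptor CD206, was lower in cKO in all 3 (-1.56, -1.40 and -1.71, all called), the sets in which Maf was lower. It was also lower in cKO peritoneal macrophages (-3.35, adjusted p = 0.00794, edgeR), where its level was 1.56 to 37.7 CPM. There Maf gave -0.81 without a call, and the genotypes overlapped. Mrc1 was higher in cKO:Sting KO (0.70) and cKO:Irf7 KO (0.89) than in the cKO sets, the comparisons in which Maf was higher. With control antibody, in contrast, Mrc1 was higher in cKO (1.19, edgeR adjusted p = 0.0463) and Maf was at -0.33 ± 0.20. A link between Mrc1 and Maf was not tested. In WT IFNg raised 14 of the 25 and lowered 4 (median 0.75), beside 19.5% and 19.3% of all genes and a median of -0.01, among them Fcgr1, the high-affinity IgG receptor (2.66), and Cd14, the lipopolysaccharide co-receptor (-2.20).

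Over the 18 time course libraries the members fell into 2 loose patterns, given here as a description of libraries that share days and genotypes. Pearson's r of log2 CPM was 0.73 between Cebpa and Cebpb and 0.76 between Maf and Zeb2, and it was -0.81 between Cebpb and Maf and -0.72 between Cebpb and Zeb2. Spi1 was within 0.51 of 0 with each other member. The genes closest to each member among 8952 compared were Lrrc25 (r = 0.949) and Tmbim6 (0.930) for Spi1, Rara (0.916) and Kansl2 (0.906) for Cebpa, and Blcap (0.969) and Gde1 (0.962) for Cebpb. They were Washc4 (0.950) and Akap10 (0.945) for Maf, Dna2 (0.901) and E2f2 (0.888) for Klf4, Ash1l (0.833) and Swt1 (0.807) for Runx1, and Xpr1 (0.968) and Ndrg3 (0.965) for Zeb2.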

How the data were processed

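RNA was sequenced from 81 mouse libraries, of which 79 were placed in 27 groups. The authors deposited read counts per gene for each library as written by STAR, with the unstranded count in the first count column. Per the labels, reads were trimmed with cutadapt and aligned to mm10, and versions are not given in the sources used here. The strand columns shared the reads almost evenly (49.87 to 50.75% in the first), so the unstranded counts were used. The labels name an rRNA depletion kit for the peritoneal libraries, whereas the methods of the study name a low-input cDNA kit. Rows that name no gene (unmapped, multimapping, no feature, ambiguous) were left out of library sizes. Unmapped reads were 1.69 to 57.1%, multimapping 5.82 to 17.5%, reads in no feature 3.76 to 28.9% and ambiguous 3.16 to 6.23%. On day 8, 2 libraries were left out of all groups because their title and library name disagree on IFNg.

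Counts were analysed with edgeR 4.0.16 in R 4.3.3, with 1 quasi-likelihood model per experiment, TMM scaling, a filter on low counts by group (a count of 10, a total of 15) and Benjamini-Hochberg adjustment over all genes tested. SE is the size of the log2 fold change divided by the square root of F. DESeq2 1.42.0 was an alternative. Other alternatives were other scalings and filters, only the groups compared, a replicate block, the larger strand column, each cKO set alone as reference, the conflicting libraries placed by either label, and each library left out in turn. An earlier form of the edgeR fit was added after seeing the data. The members and gene lists were chosen with earlier results of these data known. Named genes are the members, the targeted genes, and from each list at most the 4 called genes with the largest change in a comparison whose log2 CPM averaged 1 or more. The 2 genes most like each member were taken among tested genes whose log2 CPM (prior count 2) averaged 3 or more. Gata6 and the members of lists named beside a member's result (Cbfb, Trib1, Ddit3, Mrc1, Myb and Egr2 where outside that rule) were named after their values were seen. One promoter motif that was searched is not reported here.

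The steps were tested on simulated data for cKO against WT on day 3 (15551 genes), where 51 of 97 genes changed 2-fold (52.6%) and 82 of 98 changed 4-fold (83.7%) were recovered with 8 false calls. None of 77 pairs of replicates was identical, and their counts differed by 3.33 times the sampling noise or more (chi-square per degree of freedom). The labels number the replicates, with titles such as biol rep1, and do not say that they came from separate mice. The paper gives 3 biological replicates for the time course and antibody RNA sequencing, and 3 mice of each genotype for its BMDM counts. The p-values measure the spread between these libraries. Deviations from group means of libraries with the same number correlated above 0.1 in every pair in 6 of 22 comparisons (33 of 63 pairs), namely cKO against WT on days 3 and 7, day 7 against day 5 in cKO, IFNg in WT, the peritoneal comparison and control against no antibody in WT, and the block changed no call of a member in those 6.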

Additional observations from a re-analysis of the deposited data

Results flagged for a closer look

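For 4 members the libraries of cKO lay all on one side of WT in some comparisons and all on the other side in others. The differences between these experiments and days were not tested, except Maf between days 3 and 7, and the experiments were scaled and fitted separately. Cebpb was above WT in every cKO library on day 5 (log2 fold change 0.38) and in day 8 BMDMs untreated (0.40) or with IFNg (0.91), and below WT in every cKO library of the arms with none (-0.89), control (-1.04) and IFNAR1 antibody (-0.25) and in BMDM set 2 (-0.23). Klf4 was above WT on day 7 (0.37) and with IFNg on day 8 (1.93), and below it without antibody (-0.84), with control antibody (-1.14) and in set 1 (-0.35). Maf was above WT on day 3 (0.31) and below it on day 7 (-0.91), in untreated day 8 BMDMs (-0.30) and in sets 1, 2 and 3 (-0.87, -0.61 and -1.13). The test of the Maf difference between days 3 and 7 gave -1.22 ± 0.29 (SE, edgeR adjusted p = 0.0847). Zeb2 was above WT without antibody (0.23) and below it on day 5 (-0.30), on day 7 (-0.31), with control antibody (-0.12) and in set 2 (-0.23).

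H3f3b was called lower in cKO in all 3 arms of the antibody experiment, in which Cebpb and Klf4 were called lower in 2 arms each, and was not called in the other comparisons of cKO with WT. The difference between experiments was not tested. Its log2 fold changes were -2.95, -2.93 and -3.11 in its arms with none, control and IFNAR1 antibody, beside -0.41 to -0.16 in the other 9 comparisons of cKO with WT. The link between the H3f3b level and these members was not tested. The paper describes H3f3b deletion as variable, partial in some cKO samples and complete in others. It also describes both H3.3 genes as deleted early in the culture, with RNA sequencing read counts. By qRT-PCR it reports loss of H3.3 RNA in day 7 cKO BMDMs and in cKO peritoneal macrophages. Its RNA sequencing tracks show H3f3b as deleted in cKO cells. By western blot it reports depletion of H3.3 protein in day 7 cKO BMDMs.

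The cKO library of day 8 titled as untreated, which was placed in no group, carried 132.6 CPM of Klf4, 132.2 CPM of Cebpb and 363 CPM of Spi1, beside 10.5 to 11.6 CPM, 54.4 to 59.5 CPM and 199.98 to 218 CPM in the 2 untreated cKO libraries, with all 12 libraries of that day scaled together here. Its Irf7 level was 1993 CPM, beside 207 to 266 CPM. The cKO library titled as IFNg-treated carried 10.6 CPM of Klf4, 54.5 CPM of Cebpb, 190.0 CPM of Spi1 and 182 CPM of Irf7. In both libraries the name of the library states the opposite treatment to the title.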

How the results depend on the processing

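Of 3283 values of the members under the alternatives, 3148 stayed on the same side of the threshold, 60 lost a call (27 of them with a library left out), 74 gained one (29 with a library left out) and 1 reversed, Spi1 with IFNg in cKO at -0.027 with scaling by library size alone. The calls kept in every alternative were 8, namely Klf4 without antibody and with control antibody, Cebpb with control antibody, Maf in the 3 BMDM sets, and Cebpb and Maf in cKO:Sting KO. The number of members called depended on the setting as follows, and the cause was not tested. With only the groups compared it was 0 for cKO against WT on day 7, 1 for the change of that effect from day 3 to 7, 2 for day 5 against 3 in WT, 1 for the same step in cKO, 0 for cKO against WT with IFNg on day 8, 1 for IFNg in cKO, 0 for IFNAR1 against control antibody in WT and 0 in cKO, 2 for control against no antibody in cKO, 4 in set 2, 7 in cKO:Sting KO and 3 in cKO:Irf7 KO. DESeq2 called 1 for the change from day 3 to 7, 2 for day 5 against 3 and 2 for day 7 against 5 in WT, 2 for cKO against WT with IFNg, 1 for the difference of the IFNg effect, 2 in set 3 and 2 in cKO:Irf7 KO. Scaling by library size alone gave 0 for cKO against WT with IFNg, 3 for IFNg in WT, 0 for IFNAR1 against control in cKO and 1 in cKO:Mavs KO, and moved the median of all genes to -0.47, -0.37 and -0.83 for cKO against WT with IFNg, IFNg in WT and IFNg in cKO. No filter gave 2 for cKO against WT with IFNg, 1 for the difference of the IFNg effect, 0 for IFNAR1 against control in cKO and 2 in set 3, where RLE factors also gave 2. A mean of at least 1 CPM and the earlier edgeR fit each gave 0 for IFNAR1 against control in cKO.

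With the replicate block, which changed no call in the 6 comparisons whose numbers paired the libraries, the number called in the others was 1 for the change from day 3 to 7 (Maf, adjusted p = 0.0491), 2 for day 5 against 3 in WT (Cebpb joining Maf, 0.0494), 2 for day 7 against 5 in WT (Klf4, 0.0276, and Maf, 0.0472), 0 for IFNAR1 against control in cKO (Klf4, 0.0518), 1 for control against no antibody in cKO (Cebpa, 0.0371), 2 in set 3 (Runx1 joining Maf, 0.0489) and 3 in cKO:Irf7 KO (Klf4, 0.0296, and Runx1, 0.0363, joining Maf), all by edgeR. In those comparisons the libraries share only a number. With the conflicting libraries placed by title, 0 members were called for IFNg in WT, IFNg in cKO and cKO against WT with IFNg, and placed by library name 1 was for the difference of the IFNg effect. Against set 1 alone 2 members were called in cKO:Sting KO, 1 in cKO:Mavs KO and 0 in cKO:Irf7 KO, and against set 2 alone 3 in cKO:Irf7 KO. With 1 library left out the number called ran from 0 to 1 for cKO against WT on day 7, for the change from day 3 to 7, for day 5 against 3 in WT and for IFNAR1 against control in cKO. It ran from 0 to 2 for day 7 against 5 in WT, 1 to 5 for cKO against WT with IFNg, 2 to 6 for IFNg in cKO, 0 to 5 for the difference of the IFNg effect, 1 to 4 without antibody and for IFNAR1 against control in WT, 0 to 3 for control against no antibody in WT, 2 to 2 with control antibody and 1 to 2 in sets 1 and 3. The upper ends on day 8 came from leaving out the second treated cKO library, which leaves the library of low depth alone in its group.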
